A study of Mus musculus with 8 samples.

Results

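The nuclear genes of oxidative phosphorylation were followed in mouse embryonic stem cells (mESCs) that had been cultured in space or on the ground. Members were the protein-coding genes of the mm9 annotation whose symbols start with Nduf followed by a, b, c, s or v, with Uqcr, with Cox4 to Cox8 or with Atp5, together with Sdha, Sdhb, Sdhc, Sdhd and Cyc1. This rule, which uses names and no measured values, found 93 of the 50686 genes in the count table. Of these, 84 are counted as subunits of the respiratory complexes and the ATP synthase: 36 for complex I, 4 for complex II, 9 for complex III, 20 for complex IV and 15 for complex V. The related assembly protein Cox7a2l is counted with complex IV. Another 4 members are complex I assembly factors (Ndufaf1 to Ndufaf4). The remaining 5 are no subunits or are second copies: Atp5s, a factor of the ATP synthase, Atp5sl, Atp5l-ps1, a second Ndufb8 identifier and Cox4nb, whose present name is Emc8 and whose product belongs to a membrane complex of the endoplasmic reticulum.

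RNA of 8 cultures was sequenced, 1 library for each combination of location (Space or Ground), genotype (wild type, labelled R9wt, or Rad9-/-, labelled R9del) and culture duration (1 day, D1, or 5 days, D5). Rad9 encodes a DNA damage checkpoint protein, and no other allele or agent is named for any culture. The ground cultures were kept in the same kind of payload, and the space cultures also differed from them by launch, radiation and recovery. D1 and D5 cultures sat in separate device groups with temperature controls of their own and were seeded with different cell numbers. Duration, device group and seeding therefore cannot be told apart. At D1 both genotypes were seeded alike, but at D5 the R9del cultures were seeded with more cells than the R9wt cultures. Genotype and seeding thus cannot be told apart at D5. No condition had a replicate. Each comparison below therefore set 4 libraries against 4, and its p-values measure the spread among libraries that also differ in the other conditions.

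Oxidative phosphorylation is carried out in the inner mitochondrial membrane. Complexes I and II pass electrons from NADH and succinate to coenzyme Q, complex III passes them on to cytochrome c, complex IV reduces oxygen, and complex V (the ATP synthase) uses the resulting proton gradient to make ATP. Most subunits are encoded in the nucleus, and the rest, including the catalytic core of complex IV, in mitochondrial DNA. Pluripotent stem cells are known for a high rate of glycolysis beside a functional respiratory chain.

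Levels are given as CPM, counts scaled to the library total with edgeR's TMM factors, and library totals lay between 58238440 and 96416907 counts. The Rad9 gene itself stood at 70.3 to 93.4 CPM in the R9wt libraries and at 20.8 to 28.6 CPM in the R9del libraries, so every library matched its genotype label, and residual reads were counted in the R9del libraries (log2 fold change -1.77, edgeR adjusted p = 0.0269). The mESC marker Pou5f1 was present in all libraries, at 958 to 1804 CPM. Of 10 stem cell markers, 1 was higher in space at an adjusted p under 0.05 (Esrrb, log2 fold change 1.16) and 1 lower (Sox2, -0.97). The median log2 fold change of this list was -0.45, with 7 of 10 below 0, and the sum was 5476 to 8255 CPM on the ground and 4492 to 6135 CPM in space. Of 5 primitive endoderm markers 1 fell (Sox17, a mean of 4.12 CPM on the ground and 0.272 in space), while Gata4, Gata6, Sox7 and Pdgfra had log2 fold changes of 0.34 to 1.78 and did not pass the test, so the median of the list was 0.98. Of 4 trophoblast markers 3 were tested and 1 fell (Cdx2, 1.53 and 0.187 CPM). Of 4 mesendoderm markers none passed at an adjusted p under 0.05, with a median of -0.76, and their sum was 7 to 17 CPM on the ground and 6.18 to 33.5 in space. The sums of the primitive endoderm and trophoblast lists, 17 to 31.1 CPM on the ground against 10.3 to 81.6 in space and 74.4 to 243 against 36.2 to 277, overlapped. Of 8 fibroblast markers 5 were tested and none passed at an adjusted p under 0.05, with a median log2 fold change of 0.59, while 1 (Pdgfrb, 1.16) passed the study's threshold of a 2-fold change with an unadjusted p under 0.05. By this threshold 1 primitive endoderm marker was higher in space and 1 lower, and 1 mesendoderm marker was lower. Dcn, Lum and Postn had at most 0.115 CPM in any library and Col3a1 at most 0.235. The other fibroblast markers were present, with Thy1 at 11.8 to 38.7 CPM and Pdgfrb at 3.48 to 26.8 over the libraries. Col1a1 stood at 3.85 to 10.4 CPM and Col1a2 at 0.299 to 8.88. The part of these differences in the results below was not tested. In RNA from whole cultures, fewer cells of a type and less RNA per cell cannot be told apart.

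Few members passed the test between space and ground, and these are shown first. The subunit genes that fell in space include Cox5a, Uqcrfs1 and Ndufab1. The 250 bases before the start of each, from RefSeq (GRCm38.p6), are given 5′ to 3′ with CG dinucleotides in capitals. These genes were picked because they fell, and whether the number of CG dinucleotides goes with the change was not tested. The Cox5a sequence is chr9:57520982-57521231 on the plus strand and holds 26 CG dinucleotides. The Uqcrfs1 sequence is chr13:30545317-30545566 on the minus strand and holds 23. The Ndufab1 sequence is chr7:122101849-122102098 on the minus strand and holds 22. The median over the 17492 protein-coding genes with a promoter entry was 10 CG dinucleotides in the same 250 bases, and that over the 71 members with an entry was 14.
Cox5a: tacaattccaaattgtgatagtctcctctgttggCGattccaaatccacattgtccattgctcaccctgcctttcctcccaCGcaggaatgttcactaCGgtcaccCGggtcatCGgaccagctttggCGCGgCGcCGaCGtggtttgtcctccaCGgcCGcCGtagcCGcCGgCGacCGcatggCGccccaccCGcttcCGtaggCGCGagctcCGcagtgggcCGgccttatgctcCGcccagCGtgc
Uqcrfs1: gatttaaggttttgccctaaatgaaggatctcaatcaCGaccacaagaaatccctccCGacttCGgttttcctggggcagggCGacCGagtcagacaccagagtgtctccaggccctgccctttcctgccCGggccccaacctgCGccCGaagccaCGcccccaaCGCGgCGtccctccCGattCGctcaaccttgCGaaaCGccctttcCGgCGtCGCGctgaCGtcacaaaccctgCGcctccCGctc
Ndufab1: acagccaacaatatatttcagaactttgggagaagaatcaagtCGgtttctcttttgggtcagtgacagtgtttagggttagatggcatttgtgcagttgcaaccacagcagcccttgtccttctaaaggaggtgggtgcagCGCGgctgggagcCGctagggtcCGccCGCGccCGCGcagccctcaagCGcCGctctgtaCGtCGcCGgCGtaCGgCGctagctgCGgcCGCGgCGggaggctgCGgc

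A second set shows the coding bases of the same genes, since the GC content of the transcripts comes up again below. For each gene the 60 coding bases of highest GC content within 1 exon are given in the mm9 build, read on the coding strand, again with CG in capitals. They are chr9:57369163-57369222 for Cox5a (plus strand, coding bases 29 to 88 of 438), chr13:30637002-30637061 for Uqcrfs1 (minus strand, 56 to 115 of 822), chr15:76173996-76174055 for Cyc1 (plus strand, 3 to 62 of 975) and chr7:129245248-129245307 for Ndufab1 (minus strand, 30 to 89 of 468). All of these windows lie near the start of the coding sequence and hold 81.7% to 85.0% G or C. Uqcrb (chr13:67002353-67002412, minus strand, coding bases 184 to 243 of 333), which also fell, reaches only 50%. Cox6a1 (chr5:115798861-115798920, minus strand, 40 to 99 of 336), which did not pass the test, reaches 81.7%.
Cox5a: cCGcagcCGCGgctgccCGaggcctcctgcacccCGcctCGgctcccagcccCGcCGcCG
Uqcrfs1: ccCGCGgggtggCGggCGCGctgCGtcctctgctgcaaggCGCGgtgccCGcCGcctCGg
Cyc1: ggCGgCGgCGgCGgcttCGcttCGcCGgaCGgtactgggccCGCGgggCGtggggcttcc
Ndufab1: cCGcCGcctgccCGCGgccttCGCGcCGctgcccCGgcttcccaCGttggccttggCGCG
Uqcrb: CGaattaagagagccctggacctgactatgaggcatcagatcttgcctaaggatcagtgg
Cox6a1: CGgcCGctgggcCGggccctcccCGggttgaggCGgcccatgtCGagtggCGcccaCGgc

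The first comparison asked which of these genes responded to the space environment. Of the 89 members with enough counts to be tested, 5 fell in space at an adjusted p under 0.05 and none rose: Cox5a, Uqcrfs1, Cyc1, Ndufab1 and Uqcrb. By the same criterion 5.32% of the 20473 genes tested were lower in space and 1.01% were higher, so the share of members called, 5 of 89, is near that of all genes. The same 5 members also passed the threshold used in the study, a fold change of at least 2 with an unadjusted p under 0.05, which 8.38% of all genes passed in the lower and 2.58% in the higher direction. Of the 5, 3 belong to complex III, 1 to complex IV and 1 to complex I, and no member of complexes II or V passed either criterion. The p-values come from edgeR's quasi-likelihood test over all genes.

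Cox5a (mm9 chr9:57369039-57380231, plus strand) encodes a nuclear subunit of cytochrome c oxidase that lies on the matrix side of the enzyme. On the ground it stood at 591 CPM in R9wt D1, 473 in R9wt D5, 304 in R9del D1 and 290 in R9del D5. In space the same conditions gave 15.8, 19.6, 12.1 and 25.6 CPM. Every space library was thus far below every ground library. The fitted fall was 22.7-fold (log2 fold change -4.50, SE 0.35, edgeR adjusted p = 6.94e-05), and the mean was 18.3 ± 5.75 CPM in space against 415 ± 144 CPM on the ground (SD, n = 4 libraries each). Of its exons, 38.7% overlap Gm17596, a non-coding gene on the opposite strand that has no row in the count table used here.

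Uqcrfs1 (mm9 chr13:30632177-30637231, minus strand) encodes the Rieske iron-sulfur protein, which carries electrons inside complex III. It stood at 381, 356, 237 and 244 CPM on the ground, in the order R9wt D1, R9wt D5, R9del D1 and R9del D5, which is used throughout. In space it stood at 15.7, 17.1, 18.6 and 19.5 CPM. The space libraries lay within a narrow band although the ground libraries of the genotypes differed. The fitted fall was 17.2-fold (log2 fold change -4.10, SE 0.24, edgeR adjusted p = 2.87e-05).

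Cyc1 (mm9 chr15:76173953-76176364, plus strand) encodes cytochrome c1, the heme protein of complex III that hands electrons to cytochrome c. Its ground levels were 691, 621, 551 and 511 CPM, and its space levels 51.7, 51.6, 66.9 and 105 CPM. Here too the groups did not overlap, and the R9del D5 space library was the highest of the space libraries. The fitted fall was 8.61-fold (log2 fold change -3.11, SE 0.28, edgeR adjusted p = 0.000137).

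Ndufab1 (mm9 chr7:129228917-129245400, minus strand) encodes the mitochondrial acyl carrier protein, which is both a complex I subunit and part of mitochondrial fatty acid synthesis. It stood at 134, 214, 105 and 113 CPM on the ground and at 40, 41.7, 30.7 and 56.9 CPM in space. The groups did not overlap, and the fitted fall was 3.35-fold (log2 fold change -1.74, SE 0.29, edgeR adjusted p = 0.00514).

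Uqcrb (mm9 chr13:67001553-67006314, minus strand) encodes a small complex III subunit near the coenzyme Q binding site. It stood at 55.9, 75.8, 46.7 and 47.1 CPM on the ground and at 28.7, 30.1, 20.5 and 25.2 CPM in space. The groups did not overlap, and the fitted fall was 2.16-fold (log2 fold change -1.11, SE 0.24, edgeR adjusted p = 0.0208). This call was the least stable of the 5: the adjusted p was 0.0879 with a correction for GC content and 0.148 with one for the most GC-rich window, and it lay between 0.0611 and 0.0681 when the ground R9wt D1, space R9del D1 or space R9del D5 library was left out. Over all alternatives its log2 fold change lay between -1.19 and -0.81. Of the 50-base stretches of its exons, 36.2% occur elsewhere in the genome, so that its reads could have been shared with copies. For each of the 5 genes a two-sided exact permutation test over the 8 libraries gave p = 0.0286, the smallest value that 4 against 4 can give. Any gene whose groups do not overlap gives this value, so the test adds nothing to the lack of overlap. Such groups were found for 9.37% of all genes in the lower and 5.07% in the higher direction.

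**Figure D1:**
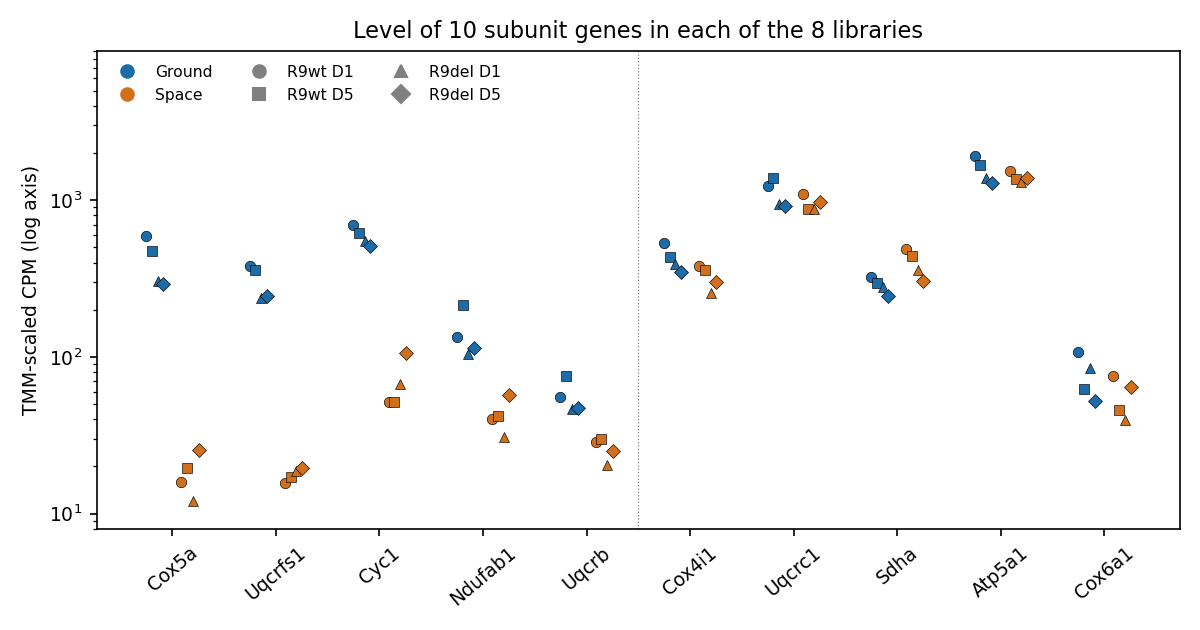
Level of 10 subunit genes in each library, in TMM-scaled CPM on a log axis, with ground in blue, space in orange and symbol shapes for genotype and duration. Left of the dotted line are the 5 genes that fell in space, whose groups do not overlap, and right of it are 5 that did not pass the test at an adjusted p under 0.05, whose groups overlap.

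Partner subunits of the same complexes did not pass the test. In complex III, the core protein Uqcrc1 stood at 1236, 1390, 950 and 922 CPM on the ground and at 1095, 879, 884 and 968 CPM in space (log2 fold change -0.23, SE 0.20, edgeR adjusted p = 0.606). In complex IV, Cox4i1, which joins the enzyme together with Cox5a during assembly, stood at 536, 433, 391 and 350 CPM on the ground and at 379, 357, 256 and 299 CPM in space (log2 fold change -0.40, SE 0.21, edgeR adjusted p = 0.341). The ranges of both genes overlapped between the groups. Apart from the 5 genes, the 76 tested subunits of complexes I to V all had a fitted change below 2-fold, with log2 fold changes between -0.78 and 0.48.

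Complex I, the NADH dehydrogenase, had 36 tested members, of which 1 fell (Ndufab1) and none rose. Ndufs1, the large iron-sulfur subunit, averaged 160 ± 30.4 CPM in space and 129 ± 28.9 on the ground (SD, n = 4 each, edgeR adjusted p = 0.516). Ndufv1, which binds NADH, averaged 153 ± 15.3 CPM in space and 193 ± 9.06 on the ground (SD, n = 4 each). Its groups did not overlap, but the edgeR adjusted p was 0.311. Ndufa1, a small accessory subunit with the highest log2 fold change of the members, averaged 20.4 ± 6.33 CPM in space and 14.7 ± 4.57 on the ground (log2 fold change 0.48, SE 0.32, edgeR adjusted p = 0.499). Over the complex, 29 of 36 log2 fold changes lay below 0, with a median of -0.27.

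Complex II, succinate dehydrogenase, has nuclear genes only. Sdha, its flavin-bearing catalytic subunit, stood at 325, 298, 280 and 246 CPM on the ground and at 485, 441, 359 and 303 CPM in space. It was higher in space in 4 of 4 pairs matched for genotype and day and was the only member with an unadjusted p under 0.05 in the higher direction, which 7.04% of all genes had, but its adjusted p was 0.246 (log2 fold change 0.47, SE 0.20, edgeR). Its iron-sulfur partner Sdhb had the opposite sign, with 178 ± 26.3 CPM in space against 253 ± 59.6 on the ground (log2 fold change -0.51, SE 0.22, edgeR adjusted p = 0.247).

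Complex V, the ATP synthase, had 15 tested members and no call. Its catalytic subunit Atp5b was the most abundant member, at 2528, 2228, 2208 and 2056 CPM on the ground and at 2388, 1924, 2069 and 2351 CPM in space (log2 fold change -0.05, SE 0.17). Atp5a1, the partner of Atp5b in the catalytic head, averaged 1400 ± 94.4 CPM in space and 1565 ± 278 on the ground (log2 fold change -0.16, SE 0.19). The sign of these small differences changed with the processing. All 15 log2 fold changes were below 0, with a median of -0.31, and the lowest was that of Atp5j, a stalk subunit (-0.78, edgeR adjusted p = 0.120).

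Across all tested members the log2 fold change was below 0 for 75 of 89, or 84.3%, where 49.1% of all genes were below 0. The median of the members was -0.28 and that of all genes 0.01. This small shift was not seen in every pair of matched libraries. The median log2 ratio of the 87 members with at least 1 CPM in a library was -0.51 for R9wt D1, -0.34 for R9wt D5 and -0.41 for R9del D1, but 0.16 for R9del D5. Lower in 4 of 4 pairs were 23 of the 89 members (25.8%, against 18.2% of all genes). In 9 members (10.1%) all space libraries lay below all ground libraries, which 9.37% of all genes did, and in none did they all lie above, which 5.07% of all genes did. Of the members, 2 were higher in 4 of 4 pairs, against 14.9% of all genes. At an unadjusted p under 0.05, 14 members were lower, or 14 of 89, against 11.7% of all genes. The counts of members with separate groups or a small p in the lower direction are near those of all genes and are no result about the members.

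**Figure D2:**
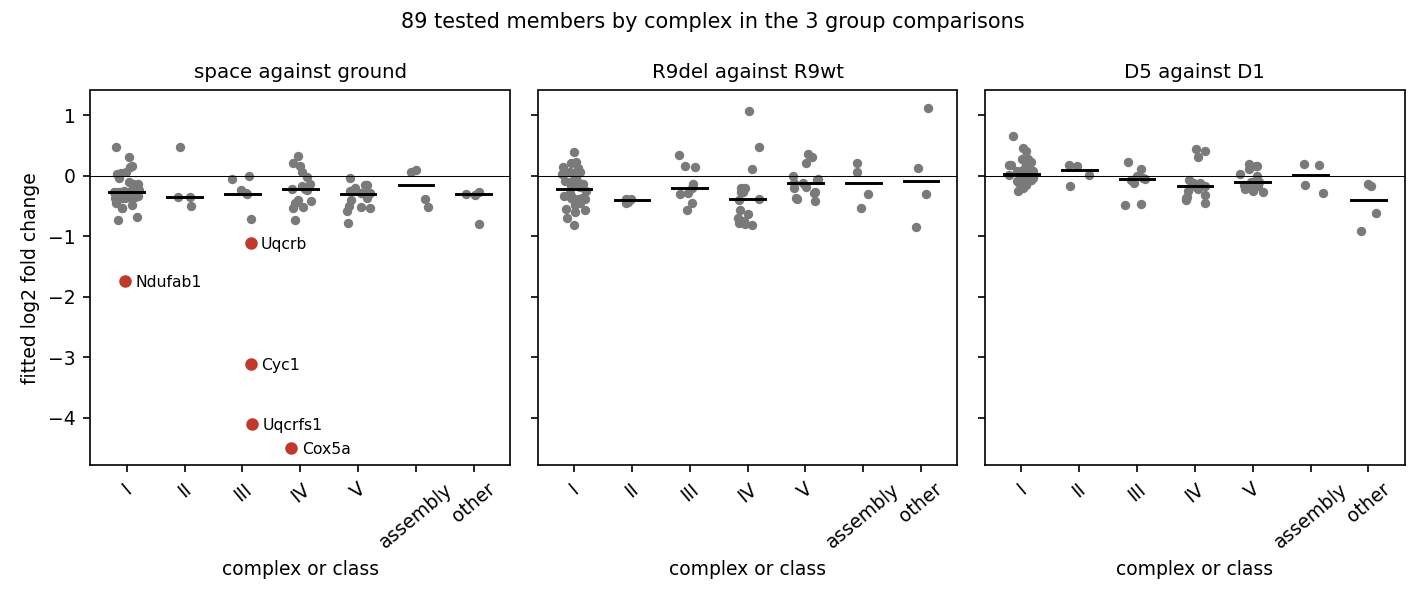
Fitted log2 fold change of the 89 tested members (points) by complex or class in the 3 group comparisons, with the median of each class as a black bar. Red points have an adjusted p under 0.05 and are found in the comparison of space with ground only, where Cox5a, Uqcrfs1, Cyc1, Ndufab1 and Uqcrb stand apart from the other members.

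The summed level of each complex shows what these falls amount to. Complex III summed to 3038, 2954, 2289 and 2201 CPM on the ground and to 1647, 1417, 1412 and 1697 CPM in space, so its groups did not overlap. The mean was 1543 ± 150 CPM in space and 2621 ± 436 on the ground (log2 ratio -0.76). Complex IV summed to 2458, 2062, 1591 and 1418 CPM on the ground and to 1535, 1146, 910 and 1251 CPM in space (log2 ratio -0.64). The ranges overlapped, and the sum was lower in space in 4 of 4 matched pairs, with log2 ratios of -0.85 to -0.18. The log2 ratios of complexes I, II and V were -0.29, -0.05 and -0.20, and each of these 3 sums was lower in space in 3 of 4 pairs. For complex II this rested on the TMM scaling. With DESeq2 size factors it summed to 928, 957, 694 and 689 on the ground and to 941, 877, 702 and 744 in space, lower only for R9wt D5. By the median log2 CPM of the members in each library, in place of the sum, the differences were -0.84 for complex III, -0.42 for complex V, -0.40 for complex II, -0.37 for complex I and -0.29 for complex IV. The median of the differences of single members was -0.36 for complex V, -0.32 for both complex II and complex III, -0.27 for complex I and -0.22 for complex IV. The order of the complexes thus depended on the measure. Without the 3 members of complex III that fell, the sum of the other 6 was 1911, 1902, 1454 and 1399 CPM on the ground and 1551, 1318, 1306 and 1547 CPM in space, with overlap and a log2 ratio of -0.22. Without Cox5a the log2 ratio of complex IV was -0.30.

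**Figure D3:**
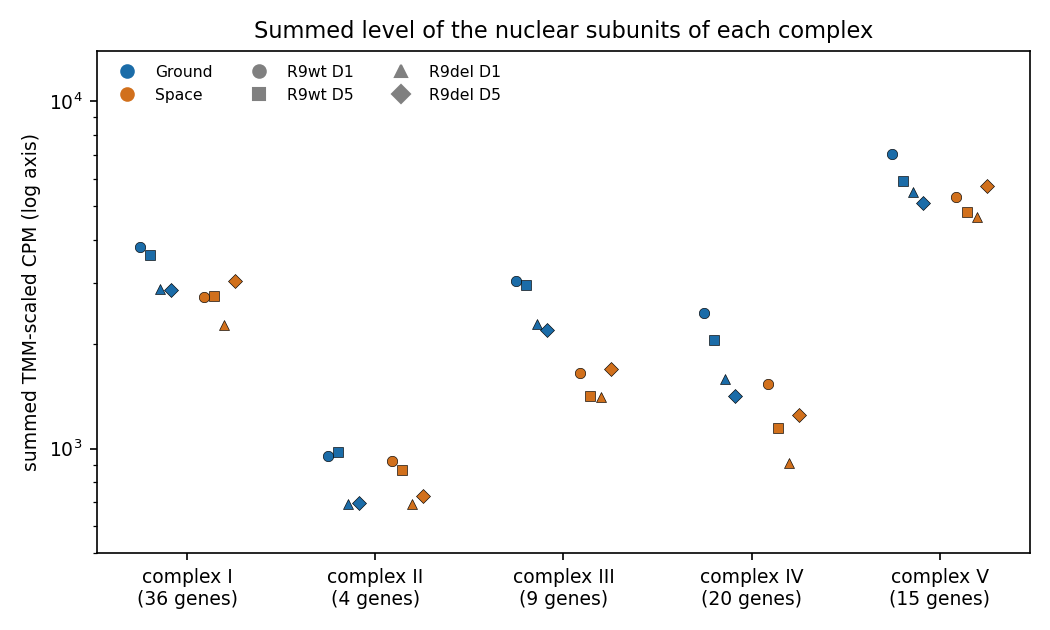
Sum of the CPM of the nuclear subunits of each complex in each library, on a log axis, with blue for ground and orange for space. Complex III is the complex whose space libraries all lie below the ground libraries, and in complex II the R9wt libraries (circles and squares) lie above the R9del libraries in both locations.

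The GC content of the transcripts was set beside the change in space. For each member the most GC-rich 200 bases of its exons were found. This value was 75.0% for Uqcrfs1, 74.5% for Ndufab1 and 73.0% for both Cox5a and Cyc1, but 48.5% for Uqcrb, against a median of 66% over the 89 tested members. Of the 12 tested members at 72% or more, 4 fell, where 14.7% of the 5752 tested genes at 72% or more were called lower. Below 72%, 1 of 77 tested members fell, where 1.4% of 11753 genes were called lower, a like share. The median log2 fold change was -0.65 over the 12 members at 72% or more (-0.26 over all genes there) and between -0.30 and -0.25 in the bins of members below. Cox6a1 (79.5%), a subunit of complex IV, stood at 108, 62.3, 84.6 and 52.2 CPM on the ground and at 75.1, 45.6, 39.6 and 64.3 CPM in space (log2 fold change -0.45, SE 0.29, edgeR adjusted p = 0.475). It was lower in space in 3 of 4 pairs. Atp5a1 (78.5%) and Atp5j (79.0%), with log2 fold changes of -0.16 and -0.78, did not pass the test either, and Atp5j was lower in 4 of 4 pairs. Spearman's rho between this GC content and the log2 fold change was -0.24 across the 89 members and -0.21 across the 17505 genes with a value, as a description of genes that share the same libraries. With a correction for GC content in the fit, Cox5a, Uqcrfs1, Cyc1 and Ndufab1 kept their calls. The part of base composition or RNA quality in these falls was not tested.

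**Figure D4:**
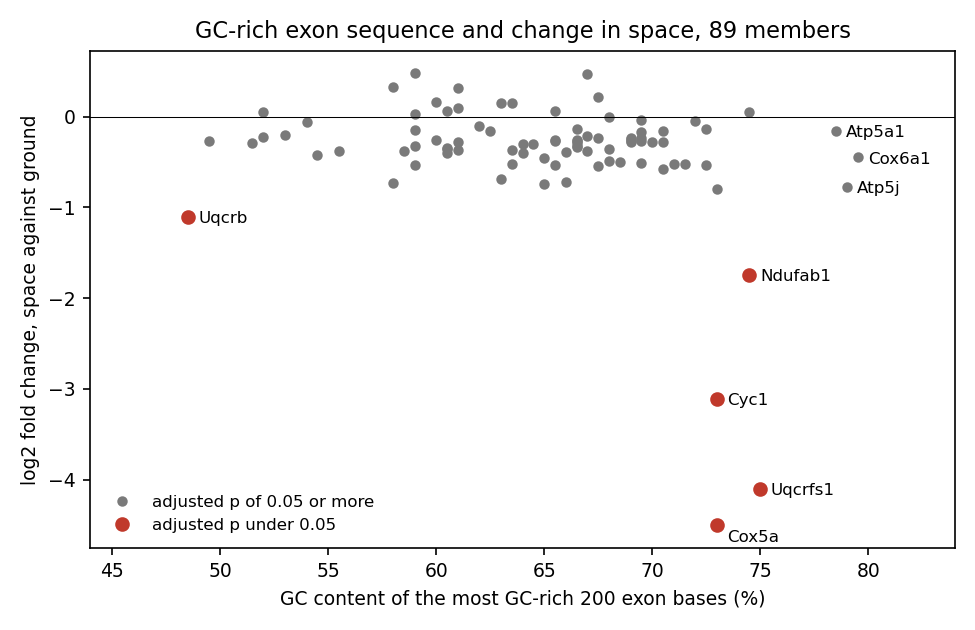
GC content of the most GC-rich 200 exon bases of each of the 89 tested members (x axis, %) against its log2 fold change in space (y axis). The 4 members with the lowest log2 fold changes lie between 73.0% and 75.0%, while Cox6a1, Atp5j and Atp5a1, further to the right, lie above a log2 fold change of -1.

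Other genes of the pathway, from lists written from general knowledge, were read in the same fit. Of 38 further assembly factors, 5 fell and 1 rose at an adjusted p under 0.05, where 5.32% of all genes were lower and 1.01% higher. Those that fell were Cox11, which delivers copper to complex IV (2.77 ± 0.45 CPM in space against 52.7 ± 4.67 on the ground, SD, n = 4 each, log2 fold change -4.25), Sdhaf1, an iron-sulfur factor of complex II (1.12 ± 0.22 against 21.7 ± 3.12, -4.28), Tmem70, an ATP synthase assembly factor (3.42 ± 1.99 against 36.9 ± 11.7, -3.43), Cox18, a membrane insertase for complex IV (10.1 ± 1.70 against 68.6 ± 36.2, -2.76), and Atpaf1, which assembles the catalytic head of the ATP synthase (17.2 ± 5.83 against 66.4 ± 26, -1.95). The most GC-rich 200 exon bases of these 5 genes held 74% to 76.5% G or C. Among listed factors that did not pass the test, Ttc19 (81%) averaged 28.5 CPM on the ground and 21.8 in space, and Lrpprc (75.5%) 125 and 137. Of the 50-base stretches of Atpaf1, 46.5% occur elsewhere in the genome, and exons of Cox11 (48.4%) and Sdhaf1 (65.9%) overlap genes on the opposite strand. Coa5, a complex IV assembly factor with 69.5% by the same measure, rose from 76.2 ± 13 to 140 ± 18.3 CPM (log2 fold change 0.88). The 4 assembly factors among the members did not pass the test, with log2 fold changes between -0.52 and 0.09. The rule missed 7 genes that the mm9 annotation lists under older names, and 1 of these fell. Ndufaf5, Ndufaf7, Ndufaf8, Atp5mpl, Atp5md and Ndufb4c did not pass the test, with log2 fold changes between -0.86 and 0.03. Ndufaf6, a complex I assembly factor, fell from 46.9 ± 17.1 to 2.97 ± 1.23 CPM (log2 fold change -3.98, edgeR adjusted p = 0.000247), and reached 73% by this measure.

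Cytochrome c (Cycs), the carrier between complexes III and IV, fell from 241 ± 57.9 to 97.1 ± 28.3 CPM (log2 fold change -1.31, SE 0.26, edgeR adjusted p = 0.0157) and was the only one of 6 listed electron carriers to pass the test, with 56.5% G or C by the same measure and 35.2% of its 50-base stretches elsewhere in the genome. None of 9 coenzyme Q synthesis genes did. Of 13 listed regulators of mitochondrial genes, 1 passed: Yy1, a zinc finger factor, fell from 81.0 ± 19.8 to 26.1 ± 4.50 CPM (log2 fold change -1.63, SE 0.24, edgeR adjusted p = 0.00229), and its most GC-rich 200 bases reached 84.5%. Nrf1, the nuclear respiratory factor, stood at 77.1 ± 5.47 CPM on the ground and at 70.4 ± 6.51 in space (log2 fold change -0.13, edgeR adjusted p = 0.761), with 86% by the same measure.

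The 13 subunits encoded in mitochondrial DNA summed to 24740, 12195, 32409 and 23699 CPM on the ground and to 12484, 10726, 17021 and 13858 CPM in space. The ranges overlapped, and the sum was lower in space in 4 of 4 matched pairs, with log2 ratios of -0.99 to -0.19. All 13 log2 fold changes were below 0, where 49.1% of all genes were, with a median of -0.79. Lower in 4 of 4 pairs were 7 of the 13, against 18.2% of all genes, and 5 passed the study's threshold, against 8.38%. At an adjusted p under 0.05, 2 fell, against 5.32%, both of them complex I subunits: mt-Nd2 (log2 fold change -2.81, SE 0.57, edgeR adjusted p = 0.0164) and mt-Nd6 (-2.20, SE 0.44, edgeR adjusted p = 0.0156). For mt-Atp6, mt-Atp8, mt-Co2, mt-Co3 and mt-Nd4l all 50-base stretches also occur elsewhere in the genome. The share was 99% for mt-Nd3, 62.2% for mt-Nd4 and 51.1% for mt-Co1, so these levels and the sum are uncertain in this respect. The libraries differed widely among themselves within a location. For mt-Atp6, the space libraries ranged from 46.8 to 2347 CPM and the ground libraries from 1187 to 6305. The mitochondrial sum also differed by the other conditions. It was lower at D5 than at D1 in 4 of 4 pairs (log2 ratio of means -0.52) and higher in R9del than in R9wt in 4 of 4 pairs (0.53).

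Promoters of the members were searched on both strands for 4 motifs of regulators of mitochondrial genes, in 300 bases from 250 before to 50 after the gene start (RefSeq, GRCm38.p6). The NRF1 motif GCGCATGCG was in 9 of 71 member promoters, or 12.7%, against 2.61% of all 17492. The YY1 motif AAGATGGCG was in 7 of 71 (9.86%, against 2.14% of all), the ETS factor motif CCGGAAGT in 5 (7.04%, against 5.69%) and the ERRalpha motif TCAAGGTCA in 2 (2.82%, against 0.377%). A promoter may count under several motifs, and among the members only that of Uqcr11 did, under NRF1 and ETS factor. The motifs of the Cox6a1 promoter (NRF1, GRCm38.p6 chr5:115349087-115349145, minus strand) and the Atp5j promoter (YY1, chr16:84835031-84835089, minus strand) are shown in capitals as examples from members that did not pass the test.
Cox6a1: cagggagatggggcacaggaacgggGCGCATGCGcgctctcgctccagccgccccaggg
Atp5j: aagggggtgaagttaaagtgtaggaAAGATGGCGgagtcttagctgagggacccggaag
None of these letters were found in the promoters of Cox5a, Uqcrfs1 or Ndufab1, which says nothing about binding of the factors. The promoters of Cyc1 and Uqcrb were not analysed here.

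The second comparison asked whether the members depend on Rad9. In the main edgeR fit no member differed between R9del and R9wt at an adjusted p under 0.05, where 1.05% of all genes were higher and 0.772% lower in R9del. At an unadjusted p under 0.05, 1 of 89 members was higher, where 9.03% of all genes were, and 9 were lower, where 11.2% of all genes were. The lower count is near the share of all genes. DESeq2 called 1 member, Ndufa7, among 2045 of 20473 genes. The additive model called 2 members, Cox4nb and Ndufa7, among 1484 genes. The study's threshold was passed only by Cox4nb, in the higher direction, which 6.19% of all genes passed, and by none in the lower direction, which 7.62% passed. Cox4nb is no subunit. It stood at 107, 49.4, 35.7 and 42.7 CPM in the R9wt libraries (ground D1, ground D5, space D1, space D5) and at 198, 119, 112 and 82.5 CPM in the matched R9del libraries. It was higher in R9del in 4 of 4 matched pairs (log2 fold change 1.12, SE 0.40, edgeR adjusted p = 0.158). It passed once matched pairs entered the fit as a block (adjusted p = 0.0163), as did 1675 of 20473 genes.

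Among true subunits the smallest p was that of Ndufa7, an accessory subunit of complex I. It stood at 84.5, 94.1, 94.8 and 71.7 CPM in the R9wt libraries and at 42.9, 46.7, 41.2 and 65.6 CPM in the R9del libraries in the same order. All R9del libraries lay below all R9wt libraries, with the R9del space D5 library nearest to them (log2 fold change -0.81, SE 0.23, edgeR adjusted p = 0.0904). The additive model and DESeq2's Wald test (adjusted p = 0.0292) called Ndufa7, while the fit with matched pairs as a block did not. The accessory subunits Ndufb8 and Ndufa6 followed, with 134 ± 21.6 against 199 ± 33.3 CPM and 47.5 ± 7.63 against 69.5 ± 7.61 CPM (SD, n = 4 each, edgeR adjusted p = 0.174 and 0.186). In the other direction Ndufs1 averaged 164 ± 30.3 CPM in R9del and 126 ± 22.4 in R9wt (adjusted p = 0.356), and Cox7b2 stayed under 1 CPM in all libraries.

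By its sum, complex II showed the most even pattern by genotype. Its 4 genes summed to 951, 980, 920 and 869 CPM in R9wt and to 694, 699, 693 and 731 CPM in R9del (ground D1, ground D5, space D1, space D5), so the genotypes did not overlap. The 4 log2 fold changes lay between -0.38 and -0.45, but none passed the test, with adjusted p between 0.303 and 0.433 in edgeR. None of the 4 genes had separate groups by itself, and 2 of them were lower in R9del in 4 of 4 pairs. Sdhc and Sdhd were slightly higher in R9del at space D5, with log2 ratios of 0.11 and 0.06. For complexes I, III, IV and V the sums of the genotypes overlapped. Over the 89 tested members, 67 had a log2 fold change below 0, or 75.3%, where 53.7% of all genes did. Lower in 4 of 4 matched pairs were 16 members (18%, against 19.2% of all genes) and higher were 2 (2.25%, against 19.1%). In 6 members (6.74%) all R9del libraries lay below all R9wt libraries, against 7.19% of all genes, and in none above, against 7.10%. The median log2 fold change of the members was -0.26, against -0.06 over all genes, and it moved to -0.06 when the ground R9wt D1 library, the highest in all but complex II, was left out.

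The third comparison set D5 against D1. No gene of 20473 passed an adjusted p under 0.05 with edgeR, and DESeq2 called 90 genes and no member. At an unadjusted p under 0.05 there was 1 member, Ndufa12, an accessory subunit of complex I, where 3% of all genes were higher and 1.37% lower. It stood at 37.8, 26.8, 41.1 and 32.8 CPM at D1 and at 76.8, 42.7, 47.1 and 50.3 CPM at D5 (ground R9wt, ground R9del, space R9wt, space R9del). The durations did not overlap (log2 fold change 0.65, SE 0.28, edgeR adjusted p = 1.00). The next members in the higher direction were Ndufb5 and Ndufa8, with log2 fold changes of 0.40 and 0.28, and in the lower direction Uqcrh, the hinge protein of complex III, Atp5l-ps1, a copy of Atp5l with under 1 CPM on average, and Cox6a1, with -0.49, -0.92 and -0.45. No member passed the study's threshold, which 2.43% of all genes passed in the higher and 1.06% in the lower direction. Of the 89 tested members 53 had a log2 fold change below 0 (59.6%, against 51.2% of all genes), 2 were lower in 4 of 4 pairs (2.25%, against 9.26%) and 7 were higher (7.87%, against 10.6%). Besides Ndufa12, whose D5 libraries all lay above the D1 libraries as in 1.68% of all genes, no member had separate groups, and in the lower direction 1.17% of all genes had. The median of the tested members was -0.07, and without the ground R9wt D1 library it was 0.16, so no common direction held.

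The 12 pairs of libraries that differ in 1 condition only have no test, and their ratios show where the members moved as a group. Only the pairs that hold the R9del D5 space library had a median of the members above 0. The sum of complexes I to V was 12436 CPM in this library. It was 12141, 10984 and 9952 CPM in the R9wt D1, R9wt D5 and R9del D1 space libraries, so the first of these was close to it. In the R9del D5 space library against the R9del D1 space library, 6 of 87 members were lower and the rest higher. The median log2 ratio was 0.55, where the median of all 17597 genes at 1 CPM was -0.01. The median was 0.61 for complex IV, 0.62 for complex V, 0.57 for complex I, 0.35 for complex III and 0.31 for complex II. Only 2 members reached a ratio of 2 in the higher direction, where 6.31% of all genes did. In the other D5 to D1 pairs the median of the members lay between -0.28 and -0.08. Against the R9wt D5 space library, 20 of 87 members were lower in the R9del D5 space library, with a median of 0.24. Of all 17597 genes, 8884 were lower there, with a median of -0.01. In contrast, 82 of 87 members were lower in ground R9del D1 than in ground R9wt D1, with a median of -0.50, where 9297 of all 17597 genes were lower, with a median of -0.05. The R9del D5 space library also had the fewest counts of all, 58238440. Markers of other states differed as well between R9del D1 and D5 in space. Gata4 stood at 4.02 and 15.8 CPM, Gata6 at 4.19 and 14.3, Sox7 at 16.2 and 25.6, Pdgfra at 9.96 and 25.8 and Sox17 at 0.142 and 0.117. The stem cell marker Zfp42 stood at 852 and 207 CPM and Pou5f1 at 1381 and 1541. The R9wt space libraries of D1 and D5 had Gata4 at 3.82 and 16 CPM and Gata6 at 1.81 and 13.2. In them Sox7 stood at 0.806 and 8.62 CPM, Pdgfra at 3.79 and 20.9 and Sox17 at 0.0597 and 0.77. Zfp42 stood there at 84.1 and 115 CPM and Pou5f1 at 973 and 958. The median log2 ratio of the members between these R9wt libraries was -0.08. What part depth, seeding or culture state had in the levels of the R9del D5 space library was not tested.

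**Figure D5:**
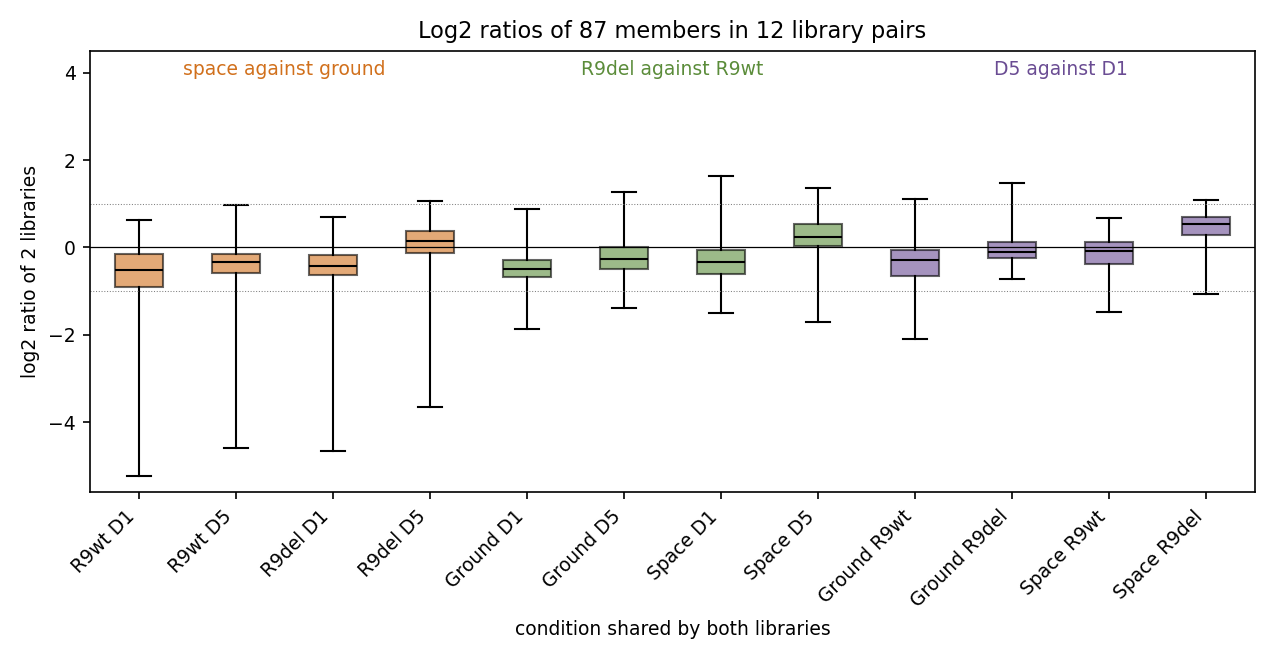
Log2 ratio of the 87 members with at least 1 CPM in a library, for 12 pairs of single libraries that differ in 1 condition, as boxes of the quartiles with the median as a line, whiskers to the lowest and highest member, and dotted lines at a ratio of 2. The medians are below 0 in 9 pairs and above 0 in the 3 pairs that hold the R9del D5 space library.

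Interactions between the conditions were tested with the third condition as a covariate. With edgeR no member passed an adjusted p under 0.05 in any of the 3 interactions, over 22561 genes. The median interaction of the 90 tested members was 0.36 for location and genotype, 0.39 for location and day and 0.48 for genotype and day (log2). Below 0 were 13.3%, 16.7% and 13.3% of the members, in this order, where 48.5%, 49.8% and 47.8% of all genes were. The 3 interactions come from the same libraries, with no replicate, and are not separate results. The R9del D5 space library and the ground R9wt D1 library each enter all 3 with a positive sign. No library was left out in these fits, so the part of single libraries in the medians was not tested. At an unadjusted p under 0.05 there were 5 members for location and genotype, all positive, where 1.60% of all genes were positive and 1.48% negative. There were 6 positive and 1 negative for location and day, against 2.94% and 3.49% of all genes, and 1 gene in all, no member, passed the adjusted test (0.00443%). For genotype and day there was 1, positive, against 1.33% positive and 3% negative of all genes. In the same 3 tests DESeq2 called 34, 76 and 156 of the 22561 genes, and 1 of these was a member, Cox6b2 for location and day (adjusted p = 0.0389). At the study's threshold, 3 members had a positive interaction of location and genotype, where 1.52% of all genes did, and none a negative one, where 1.43% did. Of these Cyc1 had a space difference less negative in R9del by 1.03 (SE 0.38, log2) and Uqcrq, a small complex III subunit, by 1.19 (SE 0.44), and both had an edgeR adjusted p of 1.00. The third, Cox8c, had at most 0.369 CPM.

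For location and day, 6 members were positive (2.67% of all genes) and 1 was negative (3.28%). Of the 5 primitive endoderm markers, 4 were positive in the same test at this threshold, with a median interaction of 1.85 over the list. Among the 6 members was Uqcr11, a small complex III subunit, at 75.3 and 40.7 CPM in the ground D1 libraries, 17.8 and 27.3 at ground D5, 24.7 and 28.6 at space D1 and 34.6 and 42.3 at space D5. Its level was lower at D5 than at D1 on the ground and higher at D5 in space, in both genotypes (interaction 1.91, SE 0.54, log2, edgeR adjusted p = 0.742). The negative member was Cox6b2, a testis form of Cox6b, at 14.6 and 20.1 CPM at ground D1, 31.6 and 48.4 at ground D5, 22.5 and 20.8 at space D1 and 8.09 and 17.6 at space D5 (interaction -2.05, SE 0.50, edgeR adjusted p = 0.742). For genotype and day the only member past the threshold was Ndufa4l2, a paralogue of the complex IV subunit Ndufa4 (interaction 1.65, SE 0.45, edgeR adjusted p = 0.882), where 1.25% of all genes were positive and 2.92% negative.

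Where a subunit has tissue forms, levels were compared per kilobase of transcript (CPM per kb), and the widely expressed form was the higher one in every library for Cox4, Cox6a, Cox6b, Cox7a, Cox7b and Cox8. Cox4i1 stood at 377 to 789 CPM per kb and its hypoxia-linked form Cox4i2 at 7.03 to 17.9. Cox6a1 stood at 69.4 to 188 and the muscle form Cox6a2 at 0 to 0.124. Cox7a2 stood at 51.1 to 135 and the muscle form Cox7a1 at 4.52 to 16.3, and the related assembly protein Cox7a2l at 89.6 to 294. Cox8a stood at 192 to 494, Cox8c at 0 to 0.774, and Cox8b had a count of 0 in every library, which allows at most 0.0335 to 0.0503 CPM by library (3 counts, counting error only). Cox7b stood at 26 to 60.6 CPM per kb and Cox7b2 at 0 to 1.05. Cox6b1 stood at 88.5 to 223 CPM per kb and the testis form Cox6b2 at 14.7 to 87.8, and they were nearest in the ground R9del D5 library, at 96.3 and 87.8. Of the genes for the ring subunit of the ATP synthase, Atp5g1 (155 to 362) and Atp5g3 (139 to 413) had overlapping ranges, and Atp5g2 stood at 55.5 to 113, although all of its 50-base stretches also occur elsewhere in the genome, so that its reads cannot be placed with certainty. Ndufa4 stood at 83.3 to 215 and its paralogue Ndufa4l2 at 25.4 to 116 CPM per kb, and in the space R9wt D1 library Ndufa4l2 was the higher one, at 116 against 99.1.

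Over all members, Atp5b had the highest mean level per kilobase (1158 CPM per kb), followed by Uqcrc1 (629), Atp5a1 (600), Cox4i1 (552) and Cox8a (317). Cox5a (314) and Cyc1 (277) still ranked among the 8 highest by their mean, which rests on the ground libraries. Counts of 14 members with at least 20% of their 50-base stretches elsewhere in the genome, among them Atp5g2, Atp5l, Cox5b, Cox7a2l, Ndufs5, Uqcrb and Ndufb4, are uncertain in this respect.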

How the data were processed

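RNA of 8 mESC cultures (1 per condition) was sequenced as paired-end mRNA libraries. The authors aligned the reads to mm9 with TopHat2 2.0.9 and deposited whole-number read counts per Ensembl gene, without normalization; the counting program, annotation and strand handling are not given in the sources used here, so reads of overlapping genes and of copies may be shared. Totals were 58238440 to 96416907 counts. GENCODE M1 (mm9) supplied names, and 32722 of 50686 identifiers (64.6%), which hold 97.1% of the counts, matched.

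Counts were scaled with TMM and tested over all genes with edgeR 4.0.16 (R 4.3.3), quasi-likelihood, after filterByExpr (minimum count 10), with Benjamini-Hochberg adjustment. Groups followed the labels. Log2 CPM used a prior count of 2. Length was that of the shortest transcript that holds the longest coding sequence. Named genes were, per comparison, the 3 members of smallest p in each direction, those with an adjusted p under 0.05 (at most 8 a direction), core subunits, tissue forms and Rad9. A core subunit named by this rule is not reported here. Genes named outside this rule were chosen after their values were seen. The members and lists were chosen with earlier results of these data known, and the lists were written from general knowledge. Of the members, 4 were not tested in the group comparisons for low counts (Cox6a2, Cox8b, Cox8c and a second Ndufb8 identifier), and Cox8c was tested in the interactions.

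Alternatives were DESeq2 1.42.0 size factors, library size alone, no filter, DESeq2's Wald test, matched pairs as a block, an additive model, GC corrections (lowess span 0.3), members with under 20% of 50-mers elsewhere, and each library left out. The correction by the most GC-rich window and, by complex, the median of single differences and the sum without fallen members were added after seeing the data. Libraries matched for the other conditions, a pairing that comes from the labels, deviated together (correlations of 0.284 to 0.610 for space and ground, 0.350 to 0.488 for genotype and 0.375 to 0.576 for day). The scripts were tested on simulated data.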

Additional observations from a re-analysis of the deposited data

Results flagged for a closer look

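Among 84 sets of 4 libraries checked, 3 held a library whose gap to the nearest of the others, set against the range of the 4, exceeded Dixon's 95% limit. Chance alone flags about 1 set in 20. Cox7b2 had 0 CPM in the space R9wt D1 library, where the other R9wt libraries had 0.233 to 0.257. The summed level of complex II was 731 CPM in the space R9del D5 library, where the other R9del libraries had 693 to 699. Uqcrh stood at 28.3 CPM in the space R9del D1 library, where the other D1 libraries had 38.3 to 40.2.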

How the results depend on the processing

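The falls of Cox5a, Uqcrfs1, Cyc1 and Ndufab1 in space kept their direction and an adjusted p under 0.05 in all 17 alternatives run, with log2 fold changes of -4.71 to -4.23, -4.20 to -3.65, -3.39 to -2.76 and -1.92 to -1.31. Uqcrb lost its call in 5 of 17, with adjusted p up to 0.148. Leaving out a library gave 4 to 6 members lower in space at an adjusted p under 0.05 and 5 to 6 at the study's threshold. The replicate block (matched pairs) kept 5 members in space against ground, where it called 1741 of 20473 genes. It gave 1 member higher in R9del (Cox4nb) and changed no other member's call.

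Small differences changed sign: Uqcrc1 in space was 0.025 with the GC correction and 0.028 with it and the block, Atp5a1 was 0.33 with the correction by the most GC-rich window, and Atp5b was 0.030 with library size alone, 0.015 with DESeq2's test, 0.12 with the GC-rich window, and between -0.089 and 0.015 with a library left out. For R9del, members at an adjusted p under 0.05 numbered 1 higher and 0 lower with the block, 1 higher and 1 lower with the additive model, 1 lower with DESeq2's test, and 1 higher and 2 lower with the GC correction and block. Calls over all 20473 genes rose too, from 372 in the main fit to 1675 with the block, 1484 with the additive model and 2045 with DESeq2's test. The GC correction, alone or with the block, put 1 member lower past the study's threshold. Leaving out a library gave 0 to 1 higher by adjusted p, and 0 to 1 higher and 0 to 2 lower by the study's threshold. Without the covariate, 2 members were positive for location and day at the study's threshold, where 6 were with it. DESeq2's test gave 1 member lower for location and day by adjusted p and 2 higher for genotype and day at the study's threshold. Over the 4 single pairs of space and ground libraries, member ratios of at least 2 in the higher direction numbered 3 with DESeq2 size factors, where TMM gave 1. By the median log2 CPM in place of the sum, the space differences were -0.40 for complex II and -0.29 for complex IV. By the median of the differences of single members, chosen after seeing the data, they were -0.32 for complex II, -0.32 for complex III and -0.22 for complex IV. By the sum without the members called lower, also chosen then, they were -0.22 for complex III and -0.30 for complex IV. The cause was not tested. The member lower in R9del with the additive model, Ndufa7, had a log2 fold change of -0.83. Counting intervals cover counting error only.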
